A study of Mus musculus with 6 samples.

Results

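Collagen chain genes encode the chains of the triple-helical proteins that build fibrils, basement membranes and microfibrils of the extracellular matrix. Members were chosen by their mouse symbol, Col followed by a number, the letter a and a number, among protein-coding genes of the deposited tables. This rule found 44 of the 23073 genes with a value. They were grouped as 11 fibrillar genes, 8 basement membrane genes, 9 fibril-associated genes and 16 genes of other types, and all 44 were above the floor of the table in at least 1 library.

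The study asked how Schwann cells maintain neuromuscular synapses, using RNA sequencing of mouse embryo diaphragm at E14.75. The series lists 2 biological replicates for each of 3 genotypes: erbB3 WT (wild-type libraries 5 and 6), erbB3 KO (mutant libraries 1 and 2) and Wnt1-Cre, Ribotag, erbB3 WT (Ribotag libraries 1 and 2). Values were RPKM, read counts scaled by the length of the gene in kilobases and by the mapped reads of the library. Depth, worked out from the floor of each table, was 100.2 and 229.9 M mapped reads in the wild-type libraries, 130.8 and 230.2 M in the mutant libraries, and 122.8 and 171.3 M in the Ribotag libraries.

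The erbB3 mutant lacks the receptor through which axonal neuregulin maintains Schwann cells, and its muscle is labelled as lacking them. Wild-type and mutant libraries held total RNA of the muscle. In the Ribotag line, Cre driven by Wnt1 regulatory sequence switches on a hemagglutinin-tagged Rpl22, a ribosomal protein, in cells of the Wnt1 lineage, which includes neural crest and the Schwann cells it forms. Those libraries held polysomal RNA pulled down with an anti-hemagglutinin antibody from the pooled diaphragms of an entire litter, in which only some embryos carried Cre, so muscle without the tag entered the pool. Their titles begin with TOM, which the labels do not explain. Neither a pulldown from untagged muscle nor input RNA was analysed here. Preparation therefore differed between Ribotag and wild-type libraries, and between Ribotag and mutant libraries it cannot be told apart from genotype.

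As background, fibrillar collagens form the cross-striated fibrils of tendon and of the connective tissue around muscle fibers, mostly types I and III with type V chains within them. Basement membrane collagens, with type IV as the network former, surround each muscle fiber, capillary and Schwann cell. Fibril-associated collagens sit on the surface of fibrils, and type VI collagen forms the beaded microfibrils whose loss causes muscular dystrophies.

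The labels were first set against marker genes. Sox10, a transcription factor of the Schwann lineage, was at 2.89 and 2.16 RPKM in wild-type libraries 5 and 6, at 0.00854 and 0.0178 in mutant libraries 1 and 2, and at 15.5 and 32.2 in Ribotag libraries 1 and 2. The 3 groups did not overlap, and Sox10 was near absent from the mutant libraries. Erbb3 transcript did not tell the genotypes apart: its RPKM was 16.5 and 15.8 in wild-type, 21.5 and 11.9 in mutant and 19.5 and 25.3 in Ribotag libraries. Over a list of 14 Schwann lineage genes, the summed RPKM was 96.9 and 85.9 in wild-type, 86.6 and 77.2 in mutant, and 213 and 438 in Ribotag libraries. Its most abundant gene, Pmp22, which many tissues express, was at 49.7, 45.5, 58.2, 60.8, 48.3 and 57.6 RPKM in the same order. Without Pmp22 the sum was 47.3, 40.3, 28.4, 16.4, 164 and 380.5.

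The Ribotag libraries were enriched for the Schwann lineage but were not free of other cells' transcripts. A list of 10 skeletal muscle genes summed to 3250.2 and 2609 RPKM in wild-type, 5486 and 3725 in mutant, and 2894 and 2655 in Ribotag libraries. A list of 9 connective tissue fibroblast genes, led by Pdgfra, summed to 122 and 128, 129 and 109.6, and 114 and 101 RPKM. Which share of a collagen value in the Ribotag libraries came from tagged cells was not tested. In every library, fewer cells of a type and less RNA per cell cannot be told apart.

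Levels of the collagen transcripts ran from among the highest of the diaphragm to near the floor. Their summed RPKM was 3679.7 and 3568 in wild-type libraries 5 and 6, 3773 and 2351 in mutant libraries 1 and 2, and 2620.1 and 2649 in Ribotag libraries 1 and 2. As a share of all RPKM of a library this was 0.809% and 0.808%, 0.826% and 0.495%, and 0.652% and 0.621%. Mutant library 1 was thus at the wild-type level, and mutant library 2 was the lowest of all 6. The fibrillar class made up 73.2% to 77.3% of collagen RPKM in a library, and Col3a1, Col1a1 and Col1a2 together made up 64.1% to 70.0%. By mean RPKM over the 6 libraries these 3 genes ranked 59, 99 and 119 among all genes with a value.

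**Figure D1:**
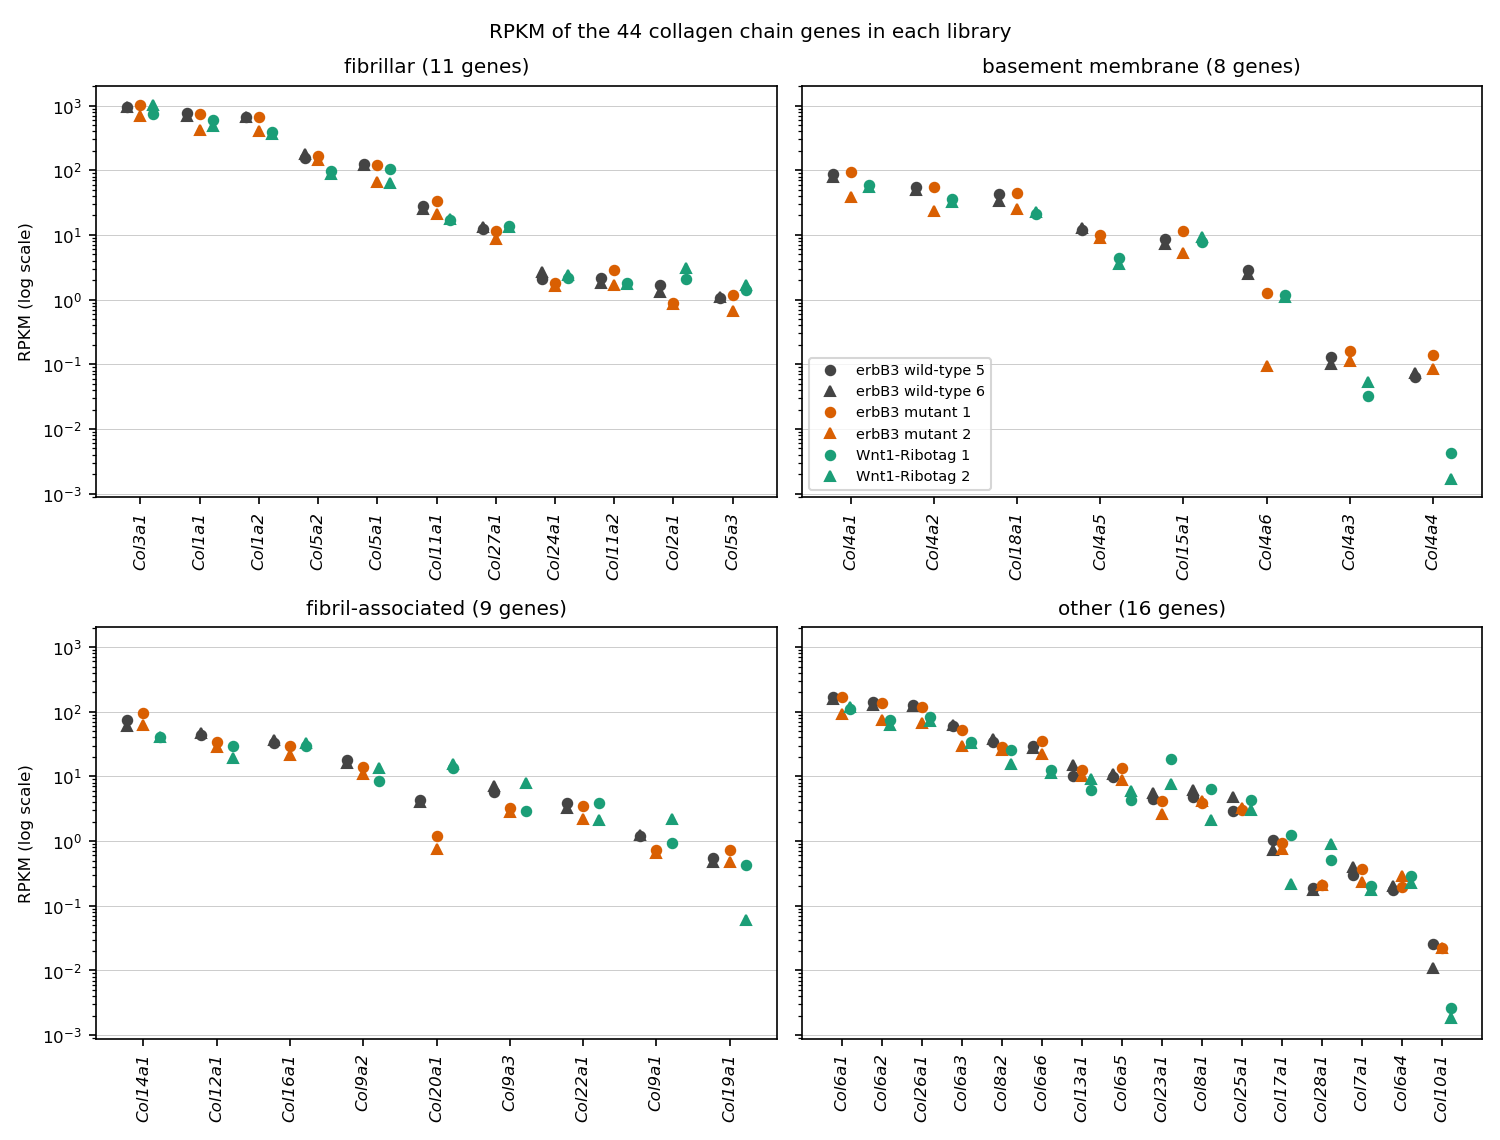
RPKM of the 44 collagen chain genes on a log axis, by class, with a point for each of the 6 libraries. Levels ran from Col3a1, between 701 and 1031 RPKM, down to Col10a1, at or under 0.0254 RPKM.

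The mutant libraries differed from each other in the collagens more than the replicates of the other groups did. Among 37 collagen genes with enough signal in all comparisons, 35 were lower in mutant library 2 than in mutant library 1, with a median log2 difference of -0.588. Over 14320 genes that median was -0.0691, and 8614 genes were lower. The same collagens had a median log2 difference of -0.0511 between wild-type libraries 6 and 5, with 20 lower and 17 higher, and of -0.0615 between Ribotag libraries 2 and 1, with 21 lower and 16 higher. For the genes described in full, the values of both mutant libraries are therefore given.

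For each comparison, genes with a mean of at least 0.5 RPKM over its 4 libraries were tested with limma on log2(RPKM + 0.5), a scale that shrinks fold changes of genes near or under 1 RPKM. P-values were adjusted over all genes tested, with 0.05 as the threshold. Counts of genes lower or higher in a comparison go by the sign of this log2 fold change. Every pair of 1 library from each group was also compared, 4 pairs in a comparison. The 3 comparisons share libraries, since each group enters 2 of them, so their values stand side by side and not as separate support. Col4a3, Col4a4, Col6a4, Col7a1, Col10a1 and Col28a1 were under the minimum in all comparisons, and Col19a1 also in both with Ribotag libraries, leaving 38, 37 and 37 of 44 tested.

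In mutant against wild-type diaphragm, the comparison of muscle without and with Schwann cells, Col20a1 was the collagen gene that fell. In this comparison 1 of 38 collagens passed the test, beside 0.171% of all 14052 genes, and 13 collagens had an unadjusted p under 0.05, 34.2% beside 12.0% of all genes. Log2 fold changes were negative for 33 of the 38 and positive for 5, with a collagen median of -0.37, while 67.0% of all genes were negative and their median was -0.10. For Col15a1 and Col6a6, at -0.03 and -0.02, the mean RPKM was by contrast slightly higher in the mutant. Median-ratio scaling of the libraries moved the median of all genes to 0.00 and that of the collagens to -0.26, with 29 lower and 9 higher. In all 4 pairs, 16 collagens were lower, beside 37.4% of all genes, and 0 were higher, beside 12.7%. A change of at least 2-fold in all 4 pairs was seen downward in 1 collagen, Col20a1, beside 0.399% of all genes, and upward in 0, beside 0.0498%.

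Without mutant library 2 the collagen median against wild-type was -0.004, with 19 genes lower and 19 higher, and by limma 0 collagens passed the test while 14 had an unadjusted p under 0.05. Without mutant library 1 the median was -0.54, 37 of 37 collagens were lower, and Col20a1 and Col4a6 passed.

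In Ribotag against wild-type libraries, Wnt1-lineage polysomal RNA against whole muscle of the same erbB3 genotype, most collagens had lower values, and Col20a1 and Col23a1 were the furthest in the other direction. The Ribotag libraries also held fewer genes above the floor, 17205 and 17945, against 19492 and 20241 in wild-type and 19739 and 20349 in mutant libraries. The part of this difference in the collagen values was not tested. By limma 0 of 37 collagens passed the test, beside 0.00694% of all 14418 genes, that is 1 gene, and 19 collagens had an unadjusted p under 0.05, 51.4% beside 19.5% of all genes. Log2 fold changes were negative for 30 of the 37 and positive for 7, while 54.4% of all genes were negative. The collagen median was -0.56 beside -0.05 over all genes. In all 4 pairs, 21 collagens were lower, beside 31.0% of all genes, and 4 were higher, beside 23.3%. At least 2-fold in all 4 pairs, Col4a5 and Col6a6 were lower, 2 collagens beside 0.825% of all genes, and Col20a1 was higher, 1 collagen beside 1.51%. With a single Ribotag library the spread comes from the wild-type libraries alone, so the medians are given. The collagen median was -0.59 without Ribotag library 1 and -0.52 without Ribotag library 2, beside 0.03 and -0.14 over all genes.

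In Ribotag against mutant libraries, Wnt1-lineage polysomal RNA against muscle that lacks Schwann cells, Col20a1 was the collagen gene that rose. Here 1 of 37 collagens passed the test, beside 1.19% of all 14325 genes, and 8 had an unadjusted p under 0.05, 21.6% beside 19.3%. Of the 37 log2 fold changes 23 were negative and 14 positive, while 47% of all genes were negative. The collagen median was -0.12 beside 0.04 over all genes. In all 4 pairs, 8 collagens were higher, beside 29.7% of all genes, and 9 were lower, beside 24.4%. At least 2-fold in all 4 pairs, 1 collagen was higher, beside 3.34% of all genes, and 0 were lower, beside 0.607%. The median was 0.26 without mutant library 1 and -0.49 without mutant library 2. The collagen median was -0.26 without Ribotag library 1 and -0.07 without Ribotag library 2, beside 0.11 and -0.04 over all genes.

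**Figure D2:**
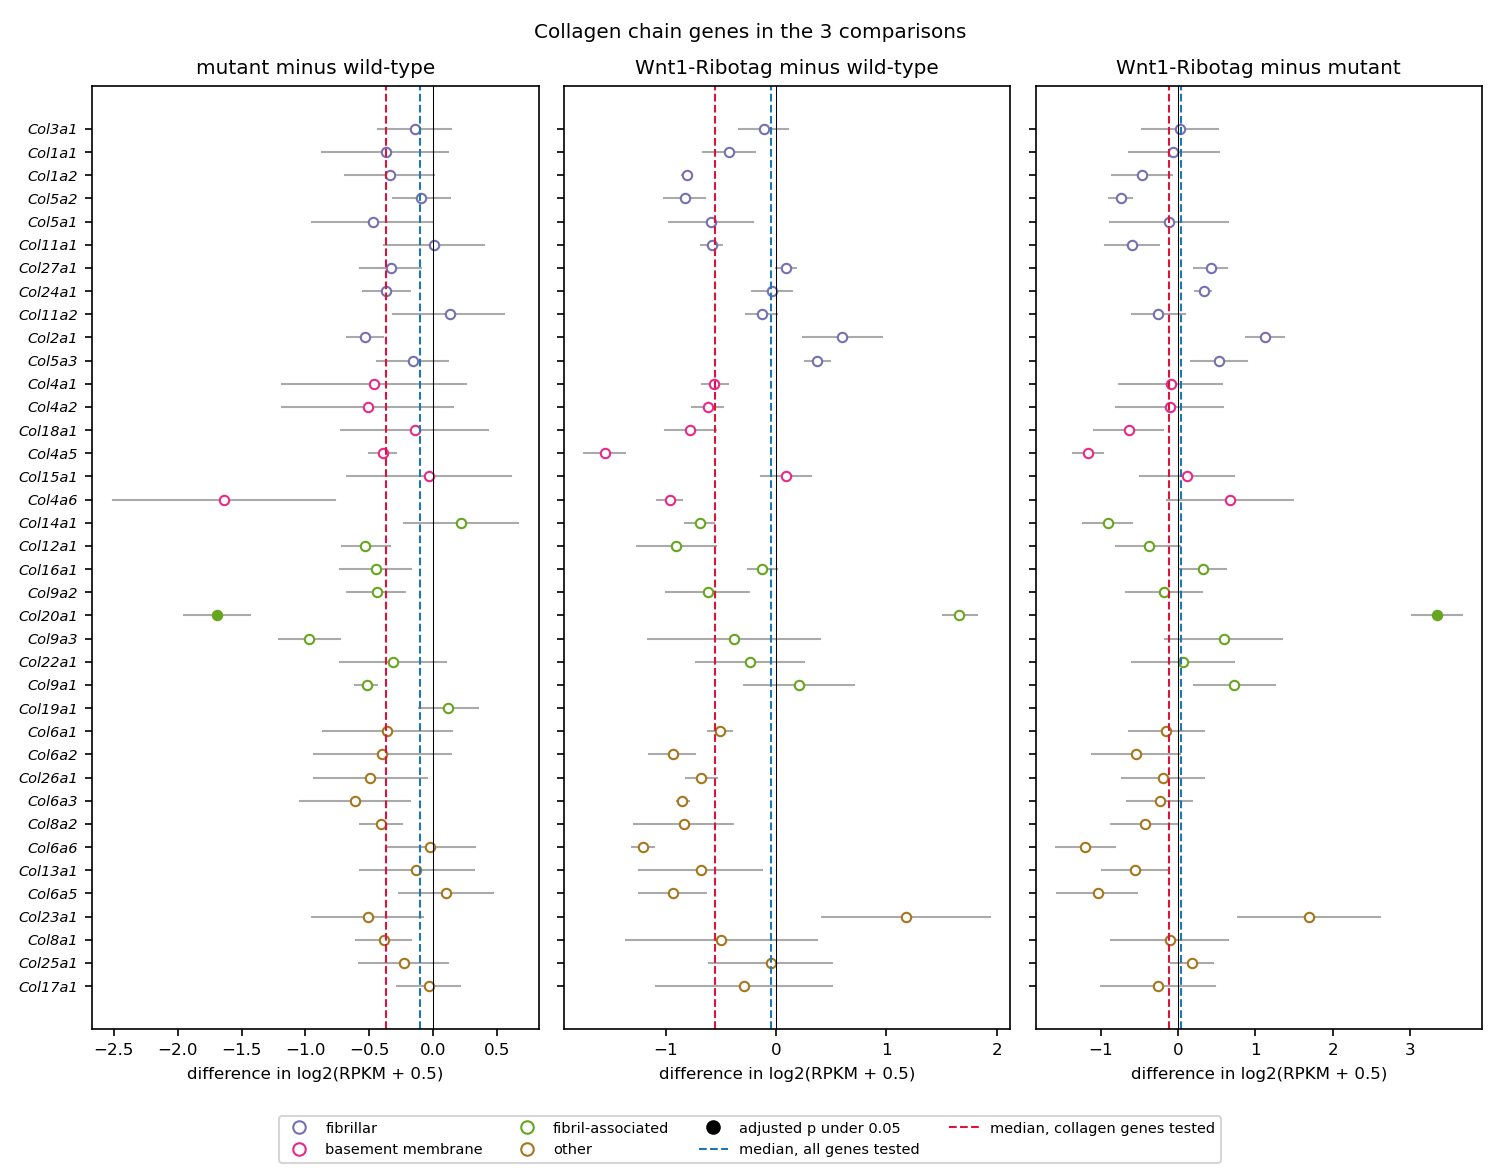
Log2 fold changes of the tested collagen chain genes in the 3 comparisons, by class, as points, filled where the adjusted p passed, with gray lines for the range over the 4 pairs and dashed lines for the medians of collagens and of all genes. Col20a1 lies furthest from 0 in each panel, at -1.69, 1.66 and 3.35, and was the collagen gene past the threshold in mutant against wild-type and in Ribotag against mutant libraries.

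Among the 11 fibrillar genes, all tested in each comparison, 9 were lower in the mutant than in wild-type muscle, at a class median of -0.33 in log2, which was 0.01 without mutant library 2. In Ribotag libraries 8 were lower than in wild-type, at a median of -0.13. It was -0.25 without Ribotag library 2, -0.24 without wild-type library 6 and -0.07 under median-ratio scaling. Against mutant libraries 6 were lower in Ribotag libraries (median -0.06). That last median was 0.32 without mutant library 1, -0.48 without mutant library 2 and 0.10 under quantile normalization. No fibrillar gene passed the test by limma, and 1, 3 and 2 had an unadjusted p under 0.05 in these comparisons. These were 9.09%, 27.3% and 18.2% of the class, beside 12.0%, 19.5% and 19.3% of all genes.

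Col3a1, the chain of the homotrimeric type III collagen of reticular fibers, had the highest level, with 942 and 934 RPKM in wild-type libraries 5 and 6, 1031 and 701 in mutant libraries 1 and 2, and 746 and 1007 in Ribotag libraries 1 and 2. The 3 groups overlapped, and its log2 fold changes were -0.14 (SE 0.23) in mutant against wild-type, -0.11 (SE 0.21) in Ribotag against wild-type and 0.03 (SE 0.30) in Ribotag against mutant. Col1a1, the major chain of type I collagen, was at 765 and 691 RPKM in wild-type, 753 and 418 in mutant and 604 and 483 in Ribotag libraries. Mutant library 1 lay between the wild-type libraries and mutant library 2 lay lowest, with log2 fold changes of -0.37 (SE 0.27), -0.43 (SE 0.19) and -0.06 (SE 0.33) in the same order of comparisons. The sign in Ribotag against mutant libraries turned for both genes with the scaling: under median-ratio scaling Col3a1 was at -0.014, and under quantile normalization Col1a1 was at 0.26.

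Beside them stood Col1a2, the other chain of type I collagen, at 660.3 and 662 RPKM in wild-type, 667 and 411 in mutant and 389 and 366 in Ribotag libraries. It and the other genes outside the rule for naming given in the methods were chosen after their values were seen. Both Ribotag libraries were below every other library for Col1a2, whose log2 fold change against wild-type was -0.81 (SE 0.16; limma, Benjamini-Hochberg adjusted p = 0.17). The type V chains, which start fibril assembly, were at 88.7 to 180.2 RPKM for Col5a2 and 64.4 to 127 for Col5a1. Col11a1, a chain of the related type XI collagen, was at 17.1 to 33.3 RPKM, and Col27a1 was at 8.79 to 13.9. Low values were seen for Col24a1 (1.64 to 2.63 RPKM), Col11a2 (1.66 to 2.87) and Col5a3 (0.676 to 1.68).

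Col2a1, the type II collagen chain known from cartilage and notochord, was at 1.67 and 1.32 RPKM in wild-type, 0.887 and 0.862 in mutant and 2.06 and 3.03 in Ribotag libraries. Its 3 groups did not overlap, with the mutant lowest and the Ribotag libraries highest. The log2 fold change was -0.53 (SE 0.17; limma, Benjamini-Hochberg adjusted p = 0.349) in mutant against wild-type, 0.60 (SE 0.28; adjusted p = 0.32) in Ribotag against wild-type and 1.13 (SE 0.32; adjusted p = 0.156) in Ribotag against mutant. A list of 9 cartilage genes, 4 of them tested, summed to 12.1 and 13.7 RPKM in wild-type, 7.01 and 8.28 in mutant and 15.1 and 18.6 in Ribotag libraries. None passed the test by limma, with 2 at an unadjusted p under 0.05 in each comparison. That was 50% of those tested, beside 12.0%, 19.5% and 19.3% of all genes. In mutant against wild-type 3 of the 4 were lower and 1 was higher. The most abundant gene of the list, Matn4, was at 6.71, 8.02, 3.18, 4.14, 7.20 and 14.0 RPKM in that order. Without Matn4 the sum was 5.39, 5.7, 3.83, 4.14, 7.86 and 4.62, with Ribotag library 2 below both wild-type libraries. In Ribotag against wild-type 3 of the 4 tested were higher, and Sox9 was lower, at 1.65 and 1.23 RPKM against 2.72 and 3.19. The list's part in the Col2a1 values was not tested.

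Of the 8 basement membrane genes 6 were tested. In mutant against wild-type the log2 fold changes of all 6 were negative (median -0.43), from -1.64 for Col4a6 to -0.03 for Col15a1, whose sign held in 8 of 12 alternatives. The median was 0.14 without mutant library 2 and -0.82 without mutant library 1. In Ribotag libraries 5 were lower than in wild-type (median -0.70) and 4 lower than in mutant libraries (median -0.10, but 0.52 without mutant library 1 and -0.72 without mutant library 2). None passed the test by limma, and 2, 5 and 1 had an unadjusted p under 0.05. These were 33.3%, 83.3% and 16.7% of those tested, beside 12.0%, 19.5% and 19.3% of all genes.

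Col4a1 and Col4a2 encode the chains of the most widespread type IV network. The RPKM of Col4a1 was 88.9 and 79.1 in wild-type, 94.5 and 39.0 in mutant and 58.3 and 55.5 in Ribotag libraries. For Col4a2 it was 54.4 and 50.0, 56.0 and 23.8, and 35.8 and 32.0. In both genes mutant library 1 was above and mutant library 2 below all other libraries, and both Ribotag libraries were below both wild-type libraries. Log2 fold changes of Col4a1 were -0.46 (SE 0.35), -0.56 (SE 0.16) and -0.09 (SE 0.41) in mutant against wild-type, Ribotag against wild-type and Ribotag against mutant, and those of Col4a2 were -0.51 (SE 0.33), -0.62 (SE 0.16) and -0.11 (SE 0.40). Without mutant library 2 the mutant values against wild-type were 0.17 for Col4a1 and 0.10 for Col4a2.

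Col4a5 and Col4a6, which lie head to head on chromosome X, encode chains of a type IV network of more restricted distribution. Col4a5 (ENSMUSG00000031274) was at 12.1 and 12.9 RPKM in wild-type, 9.82 and 9.03 in mutant and 4.37 and 3.53 in Ribotag libraries. The group means were 12.5 ± 0.584, 9.42 ± 0.564 and 3.95 ± 0.593 (SD, n = 2 libraries), with no overlap and the Ribotag libraries lowest. Its log2 fold change was -1.55 (SE 0.19; limma, Benjamini-Hochberg adjusted p = 0.134) in Ribotag against wild-type, -1.16 (SE 0.24; adjusted p = 0.0883) in Ribotag against mutant and -0.39 (SE 0.14; adjusted p = 0.378) in mutant against wild-type. Col4a6 was at 2.87 and 2.51 RPKM in wild-type, 1.26 and 0.0935 in mutant and 1.17 and 1.09 in Ribotag libraries. Both mutant and both Ribotag libraries were below the wild-type libraries, and mutant library 2 was by far the lowest. The log2 fold change of Col4a6 in mutant against wild-type was -1.64 (SE 0.43; limma, adjusted p = 0.25); it passed only without mutant library 1, and its adjusted p over the alternatives ran from 0.0311 to 0.961.

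Col18a1, the precursor of endostatin, was at 33.2 to 42.5 RPKM in wild-type, 25.6 to 44.9 in mutant and 20.8 to 22.5 in Ribotag libraries. Col15a1, which links basement membranes to fibrils in muscle and capillaries, was at 5.32 to 11.3 RPKM over all libraries, with overlapping groups. Col4a3 and Col4a4, chains of the kidney filter's type IV network, stayed at or under 0.163 and 0.137 RPKM. Endothelium and mural cells also build basement membranes, and their markers were summed over 8 and 6 genes. The endothelial sum, led by Cdh5, was 55.4 and 59.5 RPKM in wild-type, 62.2 and 46.7 in mutant and 44.6 and 42.8 in Ribotag libraries. For mural cells, led by Pdgfrb in mean RPKM over all libraries, it was 54.1 and 56.0, 47.3 and 29.9, and 59.1 and 47.7. In the Ribotag libraries Rgs5 was the highest of the mural list, at 20.4 and 15.1 RPKM against 3.79 and 4.47 in wild-type. By log2 fold change against wild-type, 4 of the 6 mural genes were lower in Ribotag libraries and 2 higher. Pdgfrb was among the lower, at 13.8 and 12.1 RPKM against 20.4 and 21.9. Both sums were lower in mutant library 2 than in mutant library 1, as the type IV chains were. Not all genes of the lists shared this. Pecam1 (12.2 and 12.7 RPKM in mutant libraries 1 and 2), Emcn (4.45 and 5.03) and Kcnj8 (1.98 and 2.17) were higher in mutant library 2. The part of these cells in the type IV values was not tested.

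The fibril-associated class held Col20a1, the collagen gene that passed the test in mutant against wild-type and in Ribotag against mutant libraries. Of its 9 genes, all were tested in mutant against wild-type, where 7 were lower and the median log2 fold change was -0.45. There 1 fell and 6 had an unadjusted p under 0.05 by limma, 66.7% beside 12.0% of all genes. Of 8 tested in the Ribotag comparisons, 6 were lower than in wild-type (median -0.31) and 3 lower than in mutant libraries (median 0.19), where 1 rose. The median against wild-type in the mutant was -0.27 without mutant library 2. That of Ribotag against wild-type was -0.18 without Ribotag library 1. That of Ribotag against mutant was -0.06 without mutant library 2 and likewise without Ribotag library 2.

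Col20a1 (ENSMUSG00000016356, GRCm38 chr2:180986535-181018363) encodes a fibril-associated chain related to types XII and XIV. It was at 4.37 and 4.05 RPKM in wild-type libraries 5 and 6, at 1.20 and 0.765 in mutant libraries 1 and 2, and at 13.4 and 15.6 in Ribotag libraries 1 and 2. The group means were 4.21 ± 0.227, 0.98 ± 0.304 and 14.5 ± 1.57 (SD, n = 2 libraries), and the groups lay apart in the order mutant, wild-type, Ribotag. Sox10 had the same order of groups. The 8 liver markers described below were also lowest in both mutant libraries, at least 2-fold in all 4 pairs with either other group. Their wild-type and Ribotag values overlapped, and a link of these genes to Col20a1 was not tested. Col20a1 fell in the mutant against wild-type by a log2 fold change of -1.69 (SE 0.19; limma, Benjamini-Hochberg adjusted p = 0.0176), lower in 4 of 4 pairs. Against the mutant it rose in the Ribotag libraries by 3.35 in log2 (SE 0.27; adjusted p = 0.00973) and was higher in 4 of 4 pairs. Against wild-type its Ribotag value stood at 1.66 in log2 (SE 0.18), 4 of 4 pairs were higher, and the adjusted p of 0.134 did not pass.

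The fall of Col20a1 passed in 9 of 12 alternatives, with adjusted p from 0.0131 to 0.298. It did not pass without the filter on low values (limma, adjusted p = 0.298) or with all 6 libraries in the fit (limma, adjusted p = 0.224). The log2 fold change stayed at -1.69 in both. The call was also lost without mutant library 2, where the log2 fold change was -1.47. The rise against the mutant passed in 12 of 13 alternatives, with adjusted p from 7.63e-05 to 0.0593. The value against wild-type passed in 3 of 12, namely without Ribotag library 1, without Ribotag library 2 and with all 6 libraries in the fit, with adjusted p from 0.00217 to 0.186. Log2 fold changes over these alternatives ran from -2.03 to -1.40, from 2.97 to 3.78 and from 1.56 to 1.77.

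Col14a1 and Col12a1, the class's most abundant genes, encode chains on the fibrils of tendon and muscle connective tissue. Col14a1 was at 73.7 and 60.9 RPKM in wild-type, 97.1 and 62.6 in mutant and 41.2 and 41.2 in Ribotag libraries. Both Ribotag libraries were below all others, with log2 fold changes of -0.69 (SE 0.17) against wild-type and -0.91 (SE 0.27) against the mutant, while mutant against wild-type was at 0.22 (SE 0.21). Col12a1 was at 43.6 and 47.6, 34.4 and 28.8, and 29.6 and 19.6 RPKM. Both mutant and both Ribotag libraries were below the wild-type libraries, at log2 fold changes of -0.53 (SE 0.14) and -0.91 (SE 0.24), and Ribotag against mutant was at -0.38 (SE 0.27). None of these differences passed the test by limma.

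The type IX chains decorate the fibrils of type II collagen. Col9a1 was at 1.18 and 1.25 RPKM in wild-type, 0.736 and 0.645 in mutant and 0.928 and 2.23 in Ribotag libraries. Both mutant libraries were lowest and the Ribotag libraries lay on either side of wild-type, with log2 fold changes of -0.52 (SE 0.16), 0.21 (SE 0.39) and 0.73 (SE 0.42) in mutant against wild-type, Ribotag against wild-type and Ribotag against mutant. Col9a3 was at 5.80 and 7.08 RPKM in wild-type, 3.30 and 2.78 in mutant and 2.89 and 7.83 in Ribotag libraries. Here too both mutant libraries were below wild-type, at a log2 fold change of -0.97 (SE 0.17; limma, Benjamini-Hochberg adjusted p = 0.0961), and the Ribotag libraries differed from each other. Col9a2 was at 17.7 and 16.4, 14.0 and 11.0, and 8.59 and 13.7 RPKM. For Col9a1, Col9a2, Col9a3 and Col2a1 both mutant libraries were thus below both wild-type libraries, as for 37.4% of all genes tested. The type XI chains, also of cartilage fibrils, did not share this: mutant library 1 was above both wild-type libraries for Col11a1, at 33.3 RPKM against 27.9 in the higher of them, and for Col11a2, at 2.87 against 2.17.

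Of the remaining class members, Col16a1 was at 29.4 and 21.6 RPKM in mutant libraries 1 and 2, below the wild-type values of 33.3 and 36.2, and at 30.0 and 33.4 in Ribotag libraries. Col22a1, a chain of the myotendinous junction, was at 2.15 to 3.93 RPKM with overlapping groups. Col19a1 was at 0.427 to 0.738 RPKM in 5 libraries and at 0.0599 in Ribotag library 2.

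Among the 16 genes of other types, 12 were tested, of which 11 were lower in the mutant than in wild-type (median log2 fold change -0.37, but -0.02 without mutant library 2). In Ribotag libraries 11 were lower than in wild-type (median -0.68) and 10 lower than in mutant libraries (median -0.25, and -0.10 without mutant library 1 or -0.59 without mutant library 2). None passed the test by limma, and 4, 8 and 3 had an unadjusted p under 0.05. These were 33.3%, 66.7% and 25% of those tested, beside 12.0%, 19.5% and 19.3% of all genes.

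Type VI collagen, the beaded filament former, contributed 6 genes, of which 5 were tested. All 5 were lower in Ribotag than in wild-type libraries in all 4 pairs, with a median log2 fold change of -0.94, each at an unadjusted p under 0.05 and none past the threshold by limma. Of all genes, 31.0% were lower in all 4 pairs and 19.5% had an unadjusted p under 0.05. Col6a1 was at 169 and 155 RPKM in wild-type, 171 and 92.9 in mutant and 110.3 and 117 in Ribotag libraries. Col6a2 was at 141 and 125, 138 and 73.5, and 75.0 and 63.0. In both, mutant library 1 was within or above the wild-type range, and mutant library 2 was lowest for Col6a1. Against wild-type the Ribotag log2 fold changes were -0.51 (SE 0.16) for Col6a1 and -0.94 (SE 0.18) for Col6a2, and the mutant ones -0.36 (SE 0.26) and -0.40 (SE 0.27). Col6a1 in Ribotag against mutant was at -0.15 (SE 0.32) and turned to 0.01 under quantile normalization. Col6a3, the third chain of the main trimer, was at 59.3 and 62.0, 52.3 and 30.0, and 34.0 and 33.0 RPKM.

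Col6a6 and Col6a5 encode chains that can take the place of the Col6a3 chain. Col6a6 was at 29.1 and 27.8 RPKM in wild-type, 35.2 and 22.4 in mutant and 12.6 and 11.4 in Ribotag libraries. Both Ribotag libraries were below all others, with a log2 fold change of -1.21 (SE 0.16; limma, Benjamini-Hochberg adjusted p = 0.134) against wild-type and -1.20 (SE 0.28; adjusted p = 0.11) against the mutant. In mutant against wild-type it was -0.02 (SE 0.20), and 0.10 under median-ratio scaling. Col6a5 was at 9.67 and 10.8, 13.6 and 8.87, and 4.29 and 6.01 RPKM, again with both Ribotag libraries lowest. Col6a4 stayed at or under 0.292 RPKM in all 6 libraries.

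The short-chain collagens form hexagonal lattices. Col8a2 was at 33.9 and 38.4 RPKM in wild-type, 28.6 and 25.7 in mutant and 25.7 and 15.4 in Ribotag libraries. Both mutant libraries and both Ribotag libraries were below wild-type, at log2 fold changes of -0.41 (SE 0.14) and -0.84 (SE 0.28), with -0.43 (SE 0.29) in Ribotag against mutant. Col8a1 was at 4.82 and 6.14, 3.89 and 4.23, and 6.35 and 2.09 RPKM. The Ribotag libraries held its highest and its lowest value, and its log2 fold changes were -0.38 (SE 0.17), -0.50 (SE 0.49) and -0.11 (SE 0.46) in mutant against wild-type, Ribotag against wild-type and Ribotag against mutant. In that last comparison its mean RPKM was slightly higher in the Ribotag libraries, 4.22 against 4.06. Col10a1, the chain of hypertrophic cartilage, was at or under 0.0254 RPKM in all 6 libraries and lowest in the Ribotag libraries, at 0.0026 and 0.00186.

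The transmembrane collagens are anchored in the plasma membrane, and Col13a1 is known from the neuromuscular junction. Col13a1 was at 10.1 and 15.2 RPKM in wild-type, 12.7 and 10.1 in mutant and 6.15 and 9.18 in Ribotag libraries. Mutant and wild-type libraries overlapped and both Ribotag libraries were lowest, with log2 fold changes of -0.13 (SE 0.21), -0.68 (SE 0.30) and -0.56 (SE 0.28) in the same order of comparisons. Col23a1 was at 4.48 and 5.54 RPKM in wild-type, 4.22 and 2.64 in mutant and 18.6 and 7.59 in Ribotag libraries. Both Ribotag libraries were above all others but differed from each other more than 2-fold. Its log2 fold change was 1.18 (SE 0.43; limma, Benjamini-Hochberg adjusted p = 0.241) against wild-type and 1.69 (SE 0.44; adjusted p = 0.134) against the mutant, and mutant against wild-type was at -0.51 (SE 0.22; adjusted p = 0.414). Col25a1, which motor axons need to enter muscle, was at 2.92 to 4.82 RPKM with overlapping groups. Col17a1, of hemidesmosomes, was at 0.738 to 1.26 RPKM in 5 libraries and at 0.216 in Ribotag library 2.

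Col26a1 was at 127 and 123 RPKM in wild-type, 119 and 66.2 in mutant and 84.2 and 71.9 in Ribotag libraries. All 4 mutant and Ribotag libraries were below wild-type, at log2 fold changes of -0.49 (SE 0.25) and -0.68 (SE 0.17), with -0.19 (SE 0.32) in Ribotag against mutant. Col28a1, whose protein has been located to basement membranes around Schwann cells of peripheral nerve, was at 0.188 and 0.177 RPKM in wild-type, 0.211 and 0.206 in mutant and 0.512 and 0.891 in Ribotag libraries. Both Ribotag libraries were above all others, with ratios of mean RPKM of 3.84 to wild-type and 3.37 to the mutant, and the mutant libraries were not below wild-type. It was under the filter, and in the alternatives that let it in it did not pass (limma, adjusted p from 0.199 to 1 against wild-type and from 0.218 to 1 against the mutant). Col7a1, the chain of the anchoring fibrils of skin, stayed between 0.174 and 0.397 RPKM.

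**Figure D3:**
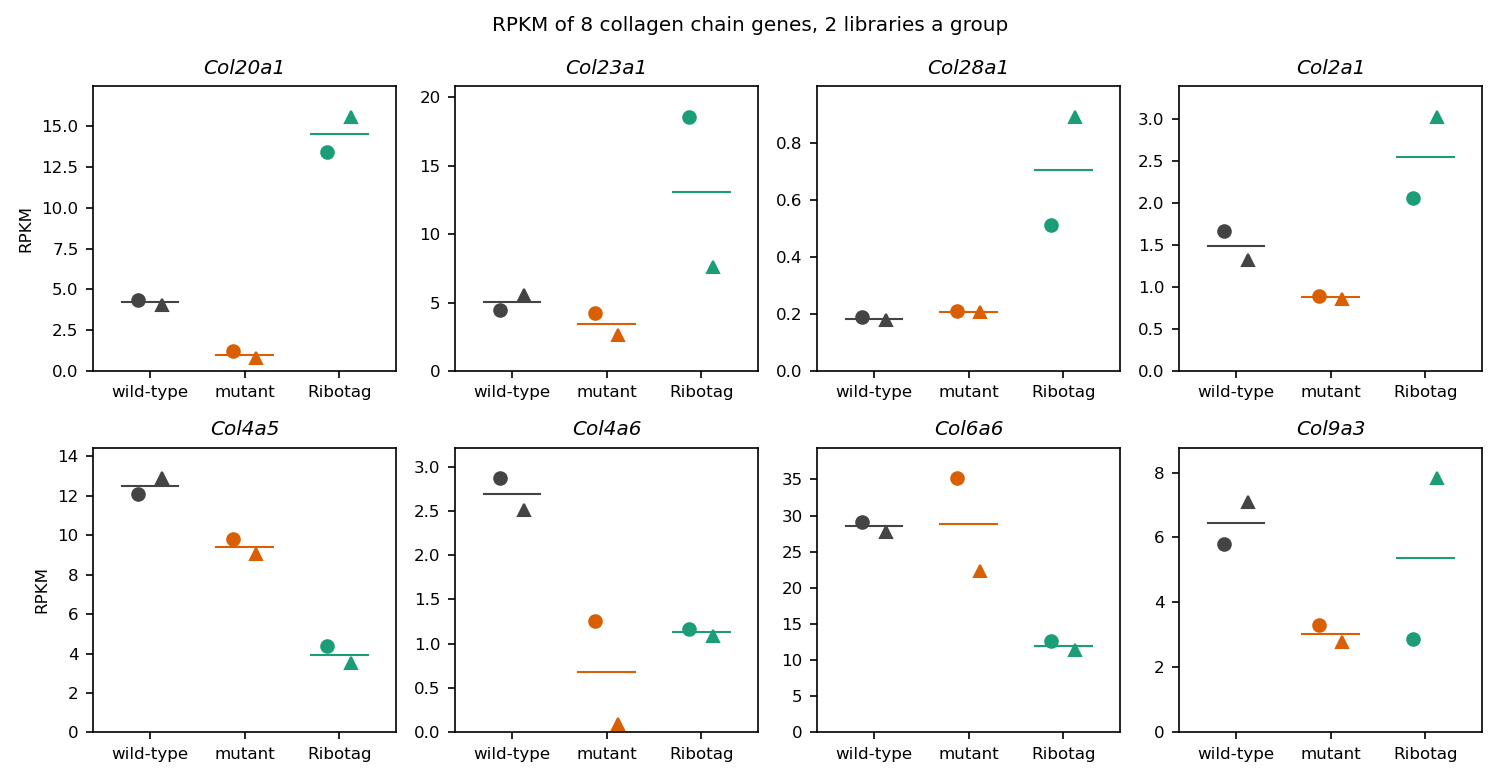
RPKM of 8 collagen chain genes in each library, with the group means. Col20a1 and Col28a1 had both Ribotag libraries above every other library by at least 2-fold, and Col4a5 and Col6a6 had both below every other library.

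Ratios between chains of 1 trimer, taken within a library from RPKM, do not depend on scaling between libraries. Col4a1 to Col4a2 held between 1.58 and 1.73 in all 6 libraries, although Col4a1 itself ran from 39.0 to 94.5 RPKM. Col1a1 to Col1a2 was 1.16 and 1.04 in wild-type, 1.13 and 1.02 in mutant and 1.55 and 1.32 in Ribotag libraries. Col6a1 to Col6a2 was 1.20 and 1.23, 1.24 and 1.26, and 1.47 and 1.86. For these ratios of types I and VI both Ribotag libraries were above the other 4, and wild-type and mutant libraries were close. Col6a3 to Col6a1 was 0.350 and 0.402, 0.306 and 0.323, and 0.308 and 0.282, with both wild-type libraries highest. Col5a1 to Col5a2 was 0.838 and 0.660, 0.717 and 0.452, and 1.07 and 0.726, with overlapping groups. Col9a1 to Col9a2 was 0.0665 and 0.0760, 0.0524 and 0.0589, and 0.108 and 0.162, with the groups apart in the order mutant, wild-type, Ribotag. These ratios were described without a test.

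Several collagen genes are neighbors in the GRCm38 annotation. Col4a1 and Col4a2 lie head to head on chromosome 8 with an overlap of 22 bases at their starts. Col4a3 and Col4a4 lie head to head on chromosome 1 with 71 bases between them, and Col4a5 and Col4a6 on chromosome X with 1308 bases. Against the near constant ratio of Col4a1 to Col4a2, the ratio of Col4a6 to Col4a5 ran from 0.0104 in mutant library 2 to 0.31. Col3a1 and Col5a2 lie tail to tail on chromosome 1, 24.6 kb apart, as do Col9a1 and Col19a1 at 9.21 kb. Col6a6, Col6a5 and Col6a4 lie on the same strand of chromosome 9, 27.9 and 28.8 kb apart, and Col6a5 was between 15.1 and 68.5 times as high as Col6a4 in RPKM.

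Upstream sequence was read for the 2 collagen genes whose RPKM in both Ribotag libraries was at least 2-fold above every other library, Col20a1 with a ratio of 3.06 between the lowest Ribotag and the highest other value and Col28a1 with 2.43. They were chosen after the values were seen. The sequences are the 250 bases before the gene start in the RefSeq promoter table for GRCm38.p6, which matched 35 of 44 members in 38 windows. Col12a1, Col14a1, Col1a1, Col22a1, Col26a1, Col2a1, Col4a3, Col5a2 and Col9a3 had no entry. Each window was searched on both strands for ACAAAG and ACAATG, letters that Sox family proteins are known to bind. Of all 32817 windows of 250 bases, 16.5% held ACAAAG, 10.7% ACAATG and 25.2% either, and of the 38 collagen windows 10.5%, 2.63% and 10.5% did. Capitals mark the matches, which are a description of letters and not of binding.

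In the Col20a1 window, chr2:180986285-180986534 on the plus strand, CTTTGT, which is ACAAAG on the other strand, began 213 bases before the gene start. The whole window also lies within an exon of the noncoding gene BX649560.1. In the Col28a1 window, chr6:8192618-8192867 on the minus strand, ACAAAG began 217 and ACAATG 51 bases before the start. Of all windows 1.91% held both, and of the 38 collagen windows 1 did, that is 2.63%.
Col20a1: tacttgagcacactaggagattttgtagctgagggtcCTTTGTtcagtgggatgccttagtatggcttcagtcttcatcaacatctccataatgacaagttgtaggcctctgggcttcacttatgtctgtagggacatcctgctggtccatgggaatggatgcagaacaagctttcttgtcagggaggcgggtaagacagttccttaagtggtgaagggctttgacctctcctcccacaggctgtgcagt
Col28a1: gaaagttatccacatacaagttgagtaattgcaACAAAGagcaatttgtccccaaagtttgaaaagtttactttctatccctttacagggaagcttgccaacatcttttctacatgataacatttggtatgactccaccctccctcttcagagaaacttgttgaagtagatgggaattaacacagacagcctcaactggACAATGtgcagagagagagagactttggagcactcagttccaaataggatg

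Collagen chains are modified, folded, cut and cross-linked by a set of dedicated proteins, and 33 of a list of 34 such genes were in the tables, with Mia3 missing. By limma 0 passed the test in each comparison. In mutant against wild-type 6 had an unadjusted p under 0.05, beside 12% of all genes. Such counts are not given for the Ribotag comparisons, where Loxl4 enters through its Ribotag values. In mutant against wild-type 27 of 31 tested were lower, at a median log2 fold change of -0.22. In Ribotag against wild-type 26 of 32 were lower (median -0.41), and in Ribotag against mutant 23 of 32 (median -0.25), counting Loxl4 in the 32. Of all genes, 67%, 54.4% and 47% were lower in the same order, shares that also stand beside the proteoglycan and receptor lists below. The summed RPKM of the list was 1781 and 1592 in wild-type, 1694 and 1443 in mutant and 1269 and 1239 in Ribotag libraries, with the Ribotag libraries lowest. Serpinh1, the collagen chaperone and the most abundant of the list, was at 453 and 345, 438 and 309, and 197 and 242 RPKM. Pcolce, which enhances removal of the procollagen C-propeptide, was at 58.4 and 53.4, 56.3 and 44.3, and 23.2 and 25.6 RPKM. Both Ribotag libraries were below all others for Pcolce, at a log2 fold change of -1.18 (SE 0.16; limma, Benjamini-Hochberg adjusted p = 0.141) against wild-type, at least 2-fold in all 4 pairs. Loxl4, a cross-linking oxidase, was highest in the Ribotag libraries, at 0.194 and 0.195, 0.0843 and 0.0821, and 0.757 and 1.18 RPKM, and at least 2-fold above the mutant in all 4 pairs. It passed the filter through its Ribotag values alone, so no test of it is given. Lox, chosen after its values were seen, was at 169 RPKM in Ribotag library 1 and at 47.6 in Ribotag library 2, and Col23a1 likewise was higher in Ribotag library 1.

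Of 15 fibril-regulating proteoglycans and matricellular proteins 13 were tested, and 1 rose in the mutant against wild-type, beside 7 of all 14052 genes. Without the filter on low values, and with all 6 libraries in the fit, 0 genes passed in this comparison. Kera, the corneal and tendon proteoglycan keratocan, was at 2.82 and 3.31 RPKM in wild-type, 10.2 and 9.18 in mutant and 1.96 and 3.68 in Ribotag libraries. Both mutant libraries were above all others, a log2 rise of 1.52 against wild-type (SE 0.15; limma, Benjamini-Hochberg adjusted p = 0.0107). Against the mutant the Ribotag value was -1.67 (SE 0.31; adjusted p = 0.0706). Decorin, Dcn, which binds type I fibrils, was at 309 and 314, 356 and 364, and 167 and 170.1 RPKM, and its log2 fold change in Ribotag against mutant libraries was -1.09 (SE 0.21; adjusted p = 0.0772). The list's medians were -0.06 in mutant against wild-type, -0.20 in Ribotag against wild-type and -0.31 in Ribotag against mutant, and 8, 10 and 10 genes were lower. Sparc, a collagen-binding protein and the most abundant of the list, was at 743 and 648, 703 and 529.8, and 653 and 562 RPKM, and the list summed to 1690.3 and 1636, 1701 and 1513, and 1383 and 1209.

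Of 10 collagen receptors 8 were tested and by limma 0 passed, with 2, 2 and 1 at an unadjusted p under 0.05. These were 25%, 25% and 12.5% of those tested, beside 12.0%, 19.5% and 19.3% of all genes. In mutant against wild-type 7 were lower (median log2 fold change -0.17), in Ribotag against wild-type 6 (median -0.40) and in Ribotag against mutant 4 (median -0.12). Itgb1, the integrin chain that pairs with the collagen-binding alpha chains, was the most abundant, at 109 and 123, 129 and 124, and 77.2 and 88.7 RPKM. The list summed to 176 and 198 RPKM in wild-type, 193 and 169.6 in mutant and 169.9 and 145 in Ribotag libraries.

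Marker lists of other cells moved with the groups as well, and their part in the collagen values was not tested. The 6 tendon genes, led by Fmod, summed to 94.7 and 87.9 RPKM in wild-type, 133 and 141 in mutant and 81.3 and 66.9 in Ribotag libraries, and 2 rose in the mutant, Kera and Tnmd. Tnmd alone was at 21 and 18.8, 54.1 and 65.0, and 9.66 and 17.1 RPKM, and Fmod was at 36.6 and 31.8, 36.3 and 28.9, and 42.1 and 22.7, so the higher mutant sum was not shared by all genes of the list. The 7 mesothelial genes, led by Upk3b, summed to 148 and 134, 153 and 141, and 87.7 and 69.5, with 1 past the test, Lrrn4, which fell in Ribotag against mutant libraries. The 6 macrophage genes, led by C1qb, summed to 109 and 98.0, 88.0 and 104, and 59.7 and 51.5, with both Ribotag libraries lowest. The 8 liver genes, led by Afp, summed to 496 and 151, 17.4 and 9.92, and 272 and 194, of which 2, Afp and Alb, fell in the mutant. The 6 erythroid genes, led by Hba-a1, summed to 10139 and 5236, 8056 and 6522, and 4229 and 3823. In Ribotag against mutant libraries Rgs5 of the mural list rose, and Mylpf, the most abundant of the muscle list, and Tnmd fell. No marker was at the floor in all 6 libraries.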

How the data were processed

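Diaphragm RNA of 6 mouse embryo libraries was read from tables deposited as RPKM, 1 per library, which the authors made from reads aligned by STAR to mm9, per the submitters' processing notes. Genes without reads carry a floor value, from which depth was computed: 100.2 to 230.2 M mapped reads. Ensembl IDs were given symbols and positions from GENCODE M21 (GRCm38), matching 21583 of 23073 genes with a value. Members and lists were chosen with earlier results of these data known.

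Each comparison used limma 3.58.1 in R 4.3.3 (lmFit, eBayes with trend) on log2(RPKM + 0.5) of its 4 libraries, leaving out genes whose mean was under 0.5 RPKM, with Benjamini-Hochberg adjustment over all genes tested and a threshold of 0.05. Spread is given as SD or SE. Python 3.11.15 with numpy 2.4.6, pandas 2.3.3 and matplotlib 3.10.9 did the rest, and the fit was tested on simulated data. Genes given by library were the 2 with the highest mean RPKM of each class (other types split into beaded filament, short-chain, transmembrane and remaining), those past the threshold or at least 2-fold changed in all 4 pairs, and Col2a1, Col9a1 and Col28a1. From other lists they were those past either rule and the most abundant. Alternatives were other pseudocounts (0.1, 1), filters, scalings and fold thresholds, no trend, all 6 libraries in the fit, a replicate block, and leaving out each library.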

Additional observations from a re-analysis of the deposited data

How the results depend on the processing

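With 2 libraries a group, both calls and directions changed with the settings. Without the filter on low values, and with all 6 libraries in the fit, 0 collagens passed limma in mutant against wild-type (9 and 3 at an unadjusted p under 0.05). With all 6 libraries 2 passed in Ribotag against wild-type and 3 in Ribotag against mutant, and without the filter 0 in Ribotag against mutant (12 unadjusted). Across all genes the calls were 24, 1 and 171; without the filter they were 0, 0 and 112, with all 6 libraries 0, 138 and 692, under median-ratio scaling 2 in Ribotag against wild-type, and under quantile normalization 80 in Ribotag against mutant. Median-ratio scaling moved the share of rises among calls in mutant against wild-type from 29.2% to 40.7%, and leaving out the filter moved it in Ribotag against mutant from 85.4% to 11.6%. The cause of these changes was not tested. The collagen median of Ribotag against wild-type was -0.457 without the filter, where more low genes enter.

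Collagens past a fold in all 4 pairs were 1, 3 and 1 at 2-fold in mutant against wild-type, Ribotag against wild-type and Ribotag against mutant, 3, 9 and 7 at 1.5-fold (beside 1.30%, 8.50% and 10.1% of all genes tested), 0 and 0 in the comparisons with wild-type at 3-fold (0.199% and 0.645%), and 3 in Ribotag against mutant with a pseudocount of 0.1 (5.59%).

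With the replicate number as a block in Ribotag against mutant, 4 of 37 collagens and 842 of 14325 genes passed. Only 2 numbers are shared and nothing else in the labels ties those libraries; deviations of same-numbered libraries had a correlation of 0.168 across 14325 genes, which are not independent replicates. The wild-type libraries carry other numbers, so no block could be made with them.

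Leaving out each library leaves a lone one that is assumed to vary like the other group. Collagens called then ran from 0 to 2 in mutant against wild-type, 0 to 24 in Ribotag against wild-type and 1 to 11 in Ribotag against mutant, and all genes called from 10 to 106, 26 to 5965 and 112 to 3672. The collagen median of mutant against wild-type ran from -0.542 to -0.004. Log2 fold changes crossed 0 for 19 of 38, 9 of 37 and 17 of 37 tested collagens, none of which had passed the test. Among the genes named by the rule, they did so in mutant against wild-type for Col13a1 (-0.414 to 0.159), Col14a1 (-0.097 to 0.532), Col1a1 (-0.796 to 0.051), Col3a1 (-0.419 to 0.136), Col4a1 (-1.095 to 0.171), Col4a2 (-1.119 to 0.10), Col6a1 (-0.796 to 0.081), Col6a2 (-0.849 to 0.057) and Col6a6 (-0.338 to 0.301). In Ribotag against wild-type they did for Col3a1 (-0.331 to 0.102), Col8a1 (-1.201 to 0.206) and Col9a1 (-0.262 to 0.674). In Ribotag against mutant they did for Col1a1 (-0.479 to 0.368), Col26a1 (-0.605 to 0.230), Col3a1 (-0.251 to 0.304), Col4a1 (-0.726 to 0.540), Col4a2 (-0.717 to 0.502), Col6a1 (-0.588 to 0.289) and Col8a1 (-0.816 to 0.590).

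Scaling turned the sign of Col6a6 in mutant against wild-type (median-ratio 0.10, quantile 0.049) and, in Ribotag against mutant, of Col1a1 (quantile 0.260), Col3a1 (median-ratio -0.014) and Col6a1 (quantile 0.010), and the cause was not tested. Besides these 5, over settings other than leaving out a library, the genes named by the rule kept direction and side of the threshold in 434 values, gained a call in 7 and lost it in 3. What depth limits among the genes tested was not tested. At 2 libraries a group a p that misses the threshold does not show that values did not differ.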
